A study of Mus musculus with 15 samples.

Results

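The liver H3K4me3 profiles of 3 mice on a high-fat diet ad libitum (HF) were compared with those of 3 mice on a standard diet ad libitum (SD). All 6 libraries that carry these labels, of 15 in the series, were used, so the comparison was set by the labels and not by any measured value. The mice were C57BL/6 females (C57BL/6J in the study's methods) with a labelled age of 12 months, and the study's methods place the start of feeding at 3 months of age and its length at 10 months. The remaining 9 libraries were from caloric restriction (CR), yellow corn (YD) and purple corn (RD) diets, with 3 mice each. Chromatin came from sections of formalin-fixed, paraffin-embedded liver by PAT-ChIP, and each library is represented by a list of islands, which are stretches of enriched windows called by SICER2, each with a width and a score. A gene was counted as marked where an island lay within 1 kb of any of its annotated transcription start sites (TSSs, mm10). Nothing in the labels limits a mouse to one cell type, so each list averages over all cells of the sections, and in such bulk tissue fewer cells of a type and less mark per cell cannot be told apart.

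H3K4me3 is placed at promoters by the SET1 and MLL methyltransferase complexes, mostly at active or inducible genes and preferentially at CpG-rich sequence. Wide domains of the mark usually sit at genes that define a cell type. A diet rich in fat loads the liver with fatty acids, which hepatocytes oxidize, export or store as triglyceride droplets. Long feeding of such a diet is known to bring insulin resistance, acute-phase proteins and, later, matrix deposition by stellate cells.

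Read totals recovered from the scores were 9749186, 10176232 and 11548776 in HF 1 to 3 and 10714462, 9547841 and 6541539 in SD 1 to 3, which makes SD 3 the shallowest of the 6. The lists held 21280, 21310 and 13499 islands in HF and 23107, 14681 and 10501 in SD. Hepatocyte markers were marked almost throughout, with 29, 30 and 29 of 30 genes in HF and 29, 25 and 30 in SD. Kupffer cell and macrophage markers were marked in HF 1 at 10 of 18 genes, among them Adgre1, Cd68 and the C1q genes, against 1 and 2 in HF 2 and HF 3 and 0, 1 and 0 in SD. Sinusoidal endothelial markers gave 13, 7 and 9 of 14 genes in HF and 10, 2 and 6 in SD, stellate cell markers 8, 3 and 4 of 16 in HF and 2, 2 and 3 in SD, and lymphocyte markers 3, 0 and 1 of 15 in HF and 0, 2 and 0 in SD. No neutrophil marker of 10 was marked in any of the 6 libraries, and 8 of the 18 Kupffer cell markers had no island in any of them. Cholangiocyte markers gave 2, 1 and 2 of 10 in HF and 1, 2 and 1 in SD. HF 1 therefore stood apart in Kupffer cell and, less so, stellate cell markers. Its endothelial and lymphocyte counts were the highest but close to those of SD 1 and SD 2, respectively. HF 1 also marked the most coding genes of the 6 libraries (54.6%). What part these marks have in the results below was not tested. HF 1 and all SD libraries carry ChIP in their deposited names, HF 2 and HF 3 carry PATChIP, and what this difference in names stands for is not given in the sources used here.

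HF libraries marked more coding genes than SD libraries. Islands lay within 1 kb of a TSS of 54.6%, 47.6% and 51.5% of the 21755 protein-coding genes in HF 1 to 3 and of 43.1%, 43.0% and 32.7% in SD 1 to 3. Every HF library was above every SD library. The mean was 51.2% ± 3.53 (SD, n = 3) in HF and 39.6% ± 5.98 (SD, n = 3) in the standard diet, a difference of 11.6 percentage points (two-sided exact permutation test, p = 0.1, the smallest that 3 against 3 allows). Without SD 3 the difference was 8.16 points. Mean reads were 10491398 in HF and 8934614 in SD, and HF 1 and HF 2 had fewer reads than SD 1. What part depth had in the difference was not tested.

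The surplus of HF islands was at promoters. Islands at coding TSSs numbered 11471, 9638 and 10530 in HF and 8649, 8558 and 6346 in SD, with a difference of the means of 2695 (two-sided exact permutation test, p = 0.1). Islands away from coding TSSs numbered 9809, 11672 and 2969 in HF and 14458, 6123 and 4155 in SD, and these groups overlapped. HF 3, the deepest library, had the fewest islands away from promoters of all 6.

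**Figure D1:**
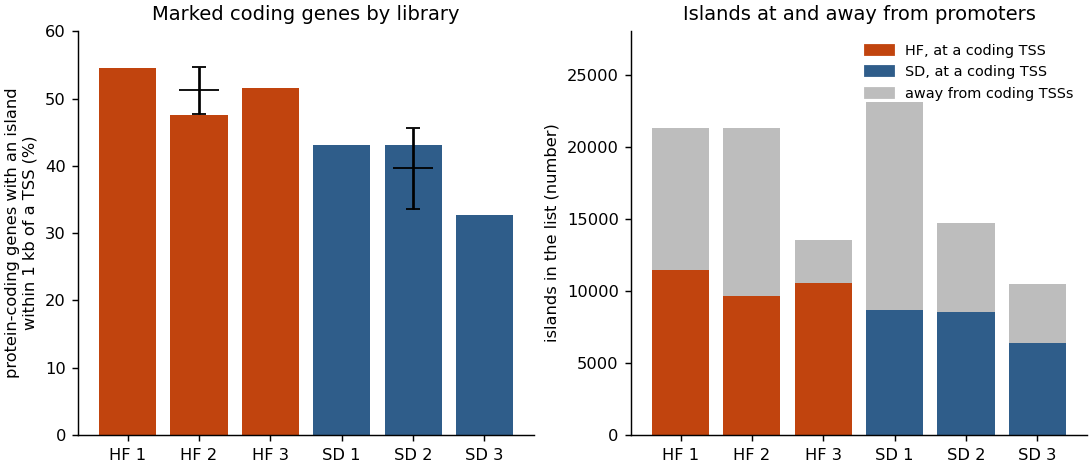
Left, percent of 21755 protein-coding genes with an island within 1 kb of a TSS, 1 bar per library, with the black mark and whiskers giving the group mean and SD (n = 3). Right, number of islands in each list, split into those at coding TSSs (coloured) and away from them (grey). The HF bars on the left lie between 47.6% and 54.6% and the SD bars between 32.7% and 43.1%, whereas the grey parts on the right overlap.

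Most genes carried the same call in both diets. Of the 21755 coding genes, 6271 (28.8%) were marked in all 6 libraries and 9230 (42.4%) in none. Of the others, 5582 (25.7%) were marked in more HF than SD libraries and 309 (1.42%) in more SD than HF libraries. These shares are over all coding genes, never-marked ones included. The share of a gene list set beside 25.7% below thus also reflects how many of its genes are never marked. An island was present in 3 of 3 HF and 0 of 3 SD libraries at 397 genes, or 1.82% of those tested, and these are called gained below as a name for this pattern alone, since no mouse was followed over time. The reverse pattern, called lost, was found at 2 genes (0.00919%). With at least 2 of 3 libraries in one diet and none in the other, 1021 genes were gained (4.69%) and 16 lost (0.0735%). Presence in 3 against 0 libraries has an exact Fisher p of 0.1 for a single gene, so none of these genes can be called by a test. The count of gained genes was 416 without HF 1, 903 without HF 2 and 496 without HF 3. It was 773 without SD 1, 857 without SD 2 and 472 without SD 3. Leaving out a library loosens the rule, so the count could only stay at 397 or rise. These counts therefore cannot show what part a single library, its depth or its cell marks had in the gained genes.

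The largest intermediate class was of 2332 genes marked in all HF libraries and in 2 of the SD libraries. In 1832 of these the library without an island was SD 3, in 295 SD 2 and in 205 SD 1. The counterpart with 3 SD and 2 HF libraries held 62 genes. Of the 624 genes with exactly 2 HF libraries and no SD library, 506 were marked in HF 1 and HF 3, 99 in HF 1 and HF 2, and 19 in HF 2 and HF 3.

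**Figure D2:**
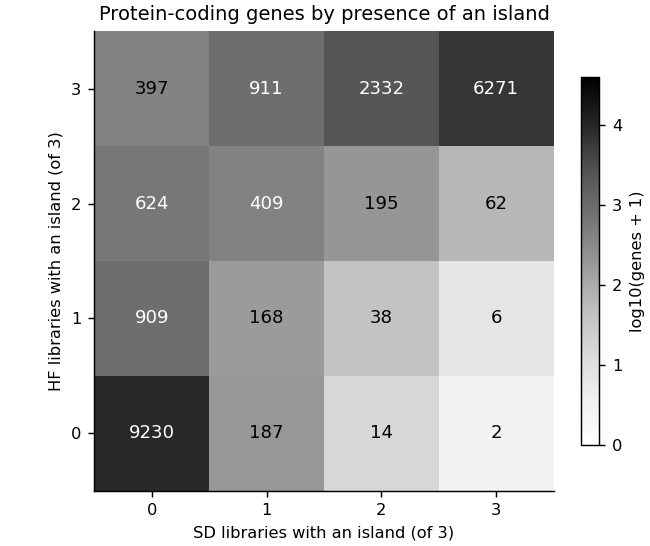
Number of protein-coding genes by how many HF libraries (vertical axis, 0 to 3) and SD libraries (horizontal axis, 0 to 3) hold an island within 1 kb of a TSS. Shade is log10(genes + 1). The upper left corner, 397 genes, is the gained class, and the lower right corner, 2 genes, the lost class.

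Gained islands were mid-sized and ranked low. The 397 genes took 380 distinct islands, since neighbours can share one. Their mean width over the HF libraries ran from 533 to 5067 bp with a median of 1600 bp. The score of an island was ranked within its own list, as a percentile with 100 the highest, because scores are not scaled between libraries. The median percentile of gained islands was 51.8, 39.5 and 31.9 in HF 1 to 3, against 86.0, 84.5 and 78.1 for islands at genes marked in all 6 libraries. The mean percentile was under 50 at 320 gained genes. Gained genes thus sat mostly in the lower ranks of the HF lists.

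**Figure D3:**
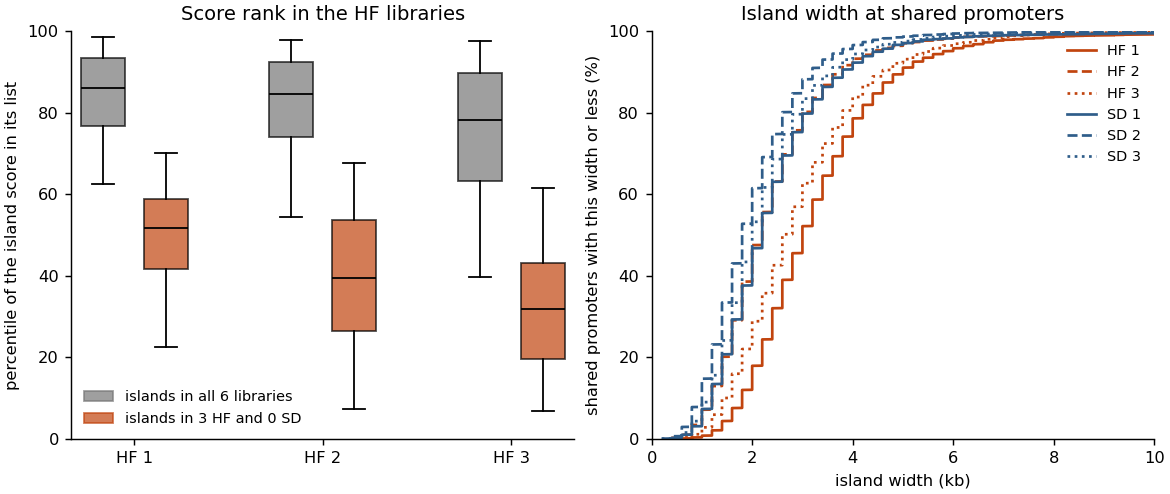
Left, percentile of the island score within its list (0 to 100) in the HF libraries for genes marked in all 6 libraries (grey) and gained genes (orange). Boxes span the quartiles, the line is the median and whiskers run from the 5th to the 95th percentile of genes. Right, cumulative percent of 5331 shared promoters against island width in kb for each library. Gained islands have medians of 51.8, 39.5 and 31.9 against 86.0, 84.5 and 78.1, and the HF 1 and HF 3 width curves lie to the right of the SD curves, while HF 2 lies on that of SD 1.

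At 386 of the 397 genes none of the HF islands overlapped an SD island, and the median distance from a gained TSS to the nearest SD island was 33.4 kb. At 28 genes an SD island lay more than 1 kb but within 3 kb of a TSS. Gpsm3, a regulator of G-protein signalling in blood cells, is such a case, with islands of 8000, 3000 and 4000 bp in HF and the nearest SD island 1206 bp from a TSS. In SD 1 and SD 2 islands lay on both sides of the TSSs, the downstream one reaching into the gene. At Serpina3k, the gene of a secreted protease inhibitor of the acute phase, HF islands of 4200, 3400 and 4800 bp lay at the TSS or 115 bp from it, and the islands of SD 2 and SD 3, of 1600 and 1400 bp, began 2715 bp from it inside the gene. SD 1 had no island near Serpina3k. At Gpsm3, and at Serpina3k in SD 2 and SD 3, an SD island was thus present nearby but not within 1 kb of a TSS.

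Promoter sequence was examined in windows of 300 bp around every annotated TSS of each gene, with the ratio of observed to expected CpG averaged per gene. The median ratio was 0.565 at gained genes, 0.621 at genes marked in all 6 libraries, 0.242 at genes marked in none and 0.467 over all coding genes. A ratio above 0.6 was found at 168 of 397 gained genes (42.3%), 54.4% of genes marked throughout and 12.0% of genes without islands. The GC box GGGCGG, on either strand, was in 44.6% of the windows of gained genes, 44.5% of those of genes marked throughout and 38.6% of all windows. The ETS core CCGGAAG was in 8.07% of gained windows, 16.5% of windows of genes marked throughout and 10.4% of all. TATAAA was in 8.51%, 9.86% and 11.5% of the same classes. A ratio above 0.6 was also found at 49.1% of genes marked in 3 HF and 2 SD libraries. It was found at 31.9% of genes marked in exactly 2 HF and no SD libraries. The ETS core was in 12.2% and 5.57% of the windows of these classes. Gained promoters were therefore CpG-rich more often than unmarked ones, with fewer ETS cores than promoters marked throughout. On both traits they lay between the 2 neighbouring classes. These are descriptions of letters, with no test.

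The RefSeq promoter table held 307 of the 397 gained symbols. The following windows, all GRCm38.p6 and read 5′ to 3′ along the gene from 250 bases before to 50 bases after a TSS, are shown because they span the range of CpG content among genes named below. Each CG dinucleotide is in capitals. Hk2 is at chr6:82774405-82774704 on the minus strand, Osmr at chr15:6874264-6874563 on the minus strand, Tfeb at chr17:47736787-47737086 on the plus strand, Mcm6 at chr1:128359656-128359955 on the minus strand, Mbl1 at chr14:41151206-41151505 on the plus strand and Etnppl at chr3:130617198-130617497 on the plus strand. The first 5 are gained genes, and Etnppl was marked in 2 SD libraries and no HF library.
Hk2: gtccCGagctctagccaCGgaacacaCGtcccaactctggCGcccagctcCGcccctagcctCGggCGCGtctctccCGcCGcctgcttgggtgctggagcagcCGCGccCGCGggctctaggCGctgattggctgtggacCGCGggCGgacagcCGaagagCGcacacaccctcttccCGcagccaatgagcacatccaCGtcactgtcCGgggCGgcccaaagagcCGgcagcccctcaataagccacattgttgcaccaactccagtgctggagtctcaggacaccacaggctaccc
Osmr: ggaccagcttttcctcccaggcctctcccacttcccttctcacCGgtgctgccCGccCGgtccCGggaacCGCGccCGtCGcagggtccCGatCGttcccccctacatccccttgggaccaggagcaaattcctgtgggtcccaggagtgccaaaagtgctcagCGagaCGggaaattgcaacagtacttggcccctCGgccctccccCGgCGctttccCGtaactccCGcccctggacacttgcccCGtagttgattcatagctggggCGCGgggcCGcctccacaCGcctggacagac
Tfeb: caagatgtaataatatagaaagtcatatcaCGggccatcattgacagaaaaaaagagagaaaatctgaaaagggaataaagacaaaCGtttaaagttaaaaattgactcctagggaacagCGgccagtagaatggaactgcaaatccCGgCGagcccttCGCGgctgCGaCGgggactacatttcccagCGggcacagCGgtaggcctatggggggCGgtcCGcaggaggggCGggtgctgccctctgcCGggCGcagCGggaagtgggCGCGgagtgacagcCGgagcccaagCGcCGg
Mcm6: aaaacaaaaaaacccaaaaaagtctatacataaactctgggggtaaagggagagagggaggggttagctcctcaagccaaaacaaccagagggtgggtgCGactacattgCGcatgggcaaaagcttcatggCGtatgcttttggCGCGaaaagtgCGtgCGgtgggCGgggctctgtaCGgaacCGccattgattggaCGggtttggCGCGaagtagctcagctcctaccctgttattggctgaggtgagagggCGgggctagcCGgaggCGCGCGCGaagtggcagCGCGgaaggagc
Mbl1: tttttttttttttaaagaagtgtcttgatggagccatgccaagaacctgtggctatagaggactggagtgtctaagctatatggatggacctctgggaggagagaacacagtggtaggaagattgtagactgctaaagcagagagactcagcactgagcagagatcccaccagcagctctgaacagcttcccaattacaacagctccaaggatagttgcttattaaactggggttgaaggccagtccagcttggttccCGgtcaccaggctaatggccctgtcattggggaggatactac
Etnppl: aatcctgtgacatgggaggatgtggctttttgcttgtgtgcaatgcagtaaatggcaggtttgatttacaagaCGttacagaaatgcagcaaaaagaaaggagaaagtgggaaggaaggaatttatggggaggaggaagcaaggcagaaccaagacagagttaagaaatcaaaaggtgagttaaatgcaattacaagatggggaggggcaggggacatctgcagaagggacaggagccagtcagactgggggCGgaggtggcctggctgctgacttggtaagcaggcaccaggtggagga
Hk2 has 25 CG dinucleotides, Osmr and Tfeb 22 each and Mcm6 21. Mbl1 has 1 and Etnppl 2. The TSS of the window was inside the islands of all 3 HF libraries at Osmr and Tfeb, inside 2 at Hk2 and Mcm6, and inside 1 at Mbl1, where the remaining islands lay within 1 kb.

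Of the gained genes with wide or high-ranked islands, 5 that encode plasma proteins or a cytokine receptor are described first. They were grouped after their values were seen, with no test of the grouping. Orm1, the acute-phase plasma protein orosomucoid, had islands of 3000, 2200 and 4000 bp in HF 1 to 3 at percentiles 76.8, 63.4 and 63.5, with the nearest SD island 57641 bp away. Mbl1, a mannose-binding lectin that starts the lectin pathway of complement, had islands of 4000, 3200 and 2200 bp at percentiles 72.5, 73.9 and 15.8, on the CpG-poor promoter printed above. Serping1, the C1 inhibitor of complement, had islands of 2600, 3000 and 1800 bp at percentiles 86.4, 78.2 and 70.5. Orm1, Mbl1 and Serping1 all encode plasma proteins that hepatocytes secrete. Osmr, the receptor subunit for oncostatin M, an inducer of acute-phase genes, had islands of 4000, 1800 and 2600 bp at percentiles 85.5, 63.4 and 66.5, and no SD island lay within 113595 bp of its TSSs. Serpina3k, described above, ranked at percentiles 88.1, 73.8 and 92.0.

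In the list of 33 inflammation and NF-κB genes, 20, 16 and 20 were marked in HF and 15, 12 and 10 in SD. Of these 33, 12 (36.4%) were marked in more HF than SD libraries, beside 25.7% of all coding genes, and none in more SD libraries. Never marked were 11 of the 33, beside 42.4% of all coding genes. Orm1 was the one member gained by the strict rule (3.03%, beside 1.82%), and with at least 2 of 3 libraries Lcn2 (lipocalin 2, which binds bacterial siderophores) and Il1b (interleukin 1 beta) joined it, so that 3 of 33 (9.09%) stood beside 4.69% of all coding genes. Lcn2 islands were 2000 bp in HF 1 and 3200 bp in HF 3, and those of Il1b 1400 and 1800 bp in the same libraries. Neither had an island in HF 2, as was so for 506 of the 624 genes with exactly 2 HF libraries and no SD library. At the 10 members marked in all 6 libraries the median percentile difference was 15.6, beside 6.16 over all shared promoters, and the median relative width difference on the log2 scale was 0.47 beside -0.01. Interferon and antigen presentation genes were marked at 24, 16 and 19 of 29 in HF and 16, 15 and 14 in SD, with none gained by the strict rule and Ifit1 and H2-Ab1 gained in HF 1 and HF 3.

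Hp (haptoglobin, the plasma scavenger of hemoglobin) was marked in all 6 libraries, with widths of 5200, 4800 and 4800 bp in HF and 3400, 1800 and 2200 bp in SD, and percentiles of 95.8, 95.0 and 89.5 against 82.0, 38.7 and 44.4. The HF values did not overlap the SD values on either measure. Its relative width difference was 0.68 ± 0.29 (SE) on the log2 scale, which did not pass the test over all shared promoters (limma, adjusted p = 0.916).

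By the strict rule 1 of 15 fatty acid uptake and binding genes (6.67%), 1 of 28 triglyceride and droplet genes (3.57%) and none of the 23 fatty acid synthesis or 32 oxidation genes were gained, beside 1.82% of all coding genes, so each count rests on a single gene at most. Fabp5, a fatty acid binding protein, had islands of 3600, 2200 and 1600 bp in HF 1 to 3 at percentiles 89.1, 53.6 and 38.9, and the nearest SD island was 179148 bp away. Lpin3, a phosphatidate phosphatase of triglyceride synthesis, had islands of 800, 2000 and 2000 bp at percentiles 41.1, 37.9 and 20.3. Ppard, a nuclear receptor that senses fatty acids, had islands of 1800, 1000 and 2000 bp at percentiles 69.8, 70.1 and 57.7. With at least 2 of 3 libraries, Fabp4, the lipid droplet coat gene Plin5 and the acetyl-CoA carboxylase gene Acacb were also gained, all 3 in HF 1 and HF 3, which makes 2 of 15 uptake genes (13.3%), 2 of 28 droplet genes (7.14%) and 1 of 23 synthesis genes (4.35%), beside 4.69%. Fabp4 is also an adipocyte marker, and of the 10 adipocyte markers 4, 1 and 3 were marked in HF and 2, 1 and 0 in SD.

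The lipid lists differed from each other in how much room they left. Fatty acid oxidation genes were nearly all marked in both diets, at 30, 30 and 29 of 32 in HF and 29, 29 and 30 in SD, and so were cholesterol synthesis genes, at 22, 21 and 22 of 22 in HF and 22, 22 and 20 in SD. Triglyceride synthesis and droplet genes were marked at 21, 19 and 20 of 28 in HF and 18, 17 and 17 in SD, and fatty acid uptake and binding genes at 13, 11 and 11 of 15 in HF and 10, 9 and 7 in SD. In these latter lists the HF libraries lay above the SD libraries without overlap, as they did over all coding genes. Marked in more HF than SD libraries were 5 of the 28 triglyceride and droplet genes (17.9%) and 7 of the 15 uptake genes (46.7%). The share was 15.6% of oxidation genes, 9.09% of cholesterol synthesis genes and 25.7% of all coding genes. Never marked were 7 of the 28 triglyceride and droplet genes and 1 of the 15 uptake genes, beside 42.4% of all coding genes. At the 15 triglyceride and droplet genes marked throughout, 5 had HF widths in bp that all exceeded the SD widths, beside 14.6% of all shared promoters. Their median relative width difference was 0.21.

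Among shared promoters of lipid genes, Slc27a5, which activates bile acids and fatty acids in hepatocytes, had widths of 6400, 5200 and 5400 bp in HF and 2800, 1200 and 2200 bp in SD. Its percentiles were 93.9, 87.8 and 91.7 against 78.3, 51.1 and 72.1, so that the groups did not overlap on either measure. The relative width difference was 1.16 ± 0.32 (SE) on the log2 scale (limma, adjusted p = 0.916). Agpat3, an acyltransferase of glycerolipid synthesis, had widths of 2800, 2000 and 2200 bp against 1000, 800 and 1200 bp, with a relative difference of 0.86 ± 0.28 (SE) and the same adjusted p.

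Some lipid genes had lower relative widths in HF, that is, once each library's median width was taken out. Pdk4, the kinase that shuts pyruvate out of oxidation when fat is burnt, had widths of 1800, 600 and 1800 bp in HF and 2600, 1800 and 2200 bp in SD, with a relative difference of -1.17 ± 0.37 (SE). Me1, malic enzyme, which supplies NADPH for fatty acid synthesis, had 800, 1000 and 1600 bp against 1400, 1600 and 2200 bp, with -1.02 ± 0.37 (SE). In bp the groups overlapped at both genes, and neither passed the test (limma, adjusted p = 0.916 each). Apoc3, an apolipoprotein that slows triglyceride clearance, had widths of 3000, 2800 and 3000 bp against 3400, 3800 and 3600 bp, with percentiles of 86.4, 80.3 and 77.0 against 93.7, 95.2 and 96.4. These values did not overlap, but Apoc3 passed neither test (limma, adjusted p = 0.916 for relative width and 0.724 for percentile).

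By the strict rule 1 of 31 glycolysis and gluconeogenesis genes (3.23%) and 1 of 28 insulin signalling genes (3.57%) were gained, beside 1.82% of all coding genes. Hk2, a hexokinase that is low in hepatocytes at rest, was gained with islands of 4000, 1600 and 3000 bp at percentiles 79.1, 49.3 and 41.5, on the CpG-rich promoter printed above. Pik3cb, a catalytic subunit of phosphoinositide 3-kinase in insulin signalling, was gained with islands of 1200, 1600 and 2800 bp at percentiles 55.4, 43.7 and 45.4. Insulin signalling genes were marked at 27 of 28 in each HF library and at 22, 25 and 17 in SD. Of these genes 11 (39.3%, beside 25.7% of all coding genes) were marked in more HF than SD libraries and none the other way. Only 1 of the 28 was never marked, beside 42.4% of all coding genes, so the 2 shares have unlike bases. Glycolysis and gluconeogenesis genes were marked at 29, 25 and 28 of 31 in HF and 21, 23 and 18 in SD, and Gckr, the regulator of glucokinase, was gained in HF 1 and HF 3.

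Within insulin signalling, Akt2, the main insulin-responsive AKT kinase of liver, had widths of 3000, 2000 and 2800 bp in HF and 1200, 1000 and 800 bp in SD, with a relative difference of 1.00 ± 0.28 (SE). Pik3ca, another catalytic subunit of the kinase, had 3800, 2000 and 3400 bp against 1600, 600 and 1400 bp, with 1.05 ± 0.36 (SE). Igfbp2, a secreted binding protein of insulin-like growth factors, went the other way, at 1800, 1400 and 800 bp against 2400, 2400 and 1800 bp, with -1.16 ± 0.35 (SE), and its HF values touched the SD values in bp. None of these differences passed the test (limma, adjusted p = 0.916 each). The median relative difference of the 16 members marked throughout was 0.13, beside -0.01 over all shared promoters.

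Clock genes were marked at 19, 18 and 18 of 20 in HF and at 15, 16 and 7 in SD, the low value being that of SD 3. Bhlhe41, a repressor of the circadian clock, was gained with islands of 2000, 1400 and 2800 bp at percentiles 44.9, 11.0 and 31.5. Nfil3, a clock-controlled repressor, was marked in all libraries with widths of 7200, 4000 and 8000 bp in HF and 1600, 1400 and 2400 bp in SD. Its percentiles of 97.2, 84.4 and 93.7 lay above those of 55.5, 57.0 and 68.3 in SD. The relative width difference of 1.44 ± 0.33 (SE) was not called over all shared promoters (limma, adjusted p = 0.682). The labels give no time of day for the collection of the livers.

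Genes of the cell cycle were gained by the wider rule more often than coding genes at large. They were marked at 37, 27 and 32 of 39 in HF and 22, 24 and 17 in SD. Of the 39, 19 (48.7%, beside 25.7% of all coding genes) were marked in more HF than SD libraries and none in more SD libraries. Never marked were 2 of the 39, beside 42.4% of all coding genes. By the strict rule 2 of 39 (5.13%, beside 1.82%) were gained. Mcm6, a subunit of the replicative helicase, had islands of 1400, 400 and 600 bp at percentiles 61.8, 57.2 and 36.9, and Cdkn2b, a cyclin-dependent kinase inhibitor, with 1200, 1400 and 1000 bp at percentiles 45.6, 39.7 and 13.4. With at least 2 of 3 libraries, Aurkb, Bub1, Ccne1, Cdkn2a, E2f2, Mcm2, Mki67 and Top2a joined them, so 10 of 39 (25.6%) stood beside 4.69%. Of these 8 further genes, 6 were marked in HF 1 and HF 3 and 2 in HF 1 and HF 2. The gained members include both drivers of division, such as Ccne1 (cyclin E1), and inhibitors, Cdkn2a and Cdkn2b. The list was described by these counts only, and no set test was made.

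Esam, an adhesion molecule of endothelial cell junctions, was gained with islands of 4400, 1800 and 3800 bp at percentiles 77.4, 22.8 and 46.3. Col14a1, a collagen of fibril surfaces, was gained with 1800, 1400 and 3000 bp at percentiles 8.4, 15.7 and 30.0, and Tgfb3, a transforming growth factor, with 1400, 800 and 2800 bp at percentiles 41.6, 14.7 and 25.8. Col14a1 and Tgfb3 islands were absent from all 9 CR, YD and RD libraries. Extracellular matrix genes were marked at 22, 12 and 12 of 32 in HF and 6, 8 and 6 in SD. Of the 32, 17 (53.1%, beside 25.7% of all coding genes) were marked in more HF than SD libraries and none the other way. Never marked were 9 of the 32, beside 42.4% of all coding genes. By the strict rule 2 of 32 (6.25%, beside 1.82%) were gained and by the wider rule 4 (12.5%, beside 4.69%). Dcn (decorin) was marked in HF 1 and HF 2 and Tgfb2 in HF 1 and HF 3, with no island in SD. The HF 1 count of this list, 22, stands beside that library's 8 stellate and 13 endothelial markers given above, and their part in it was not tested. Dcn is in both the matrix and the stellate list, so the counts of these lists are not independent.

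Xenobiotic receptor and cytochrome P450 genes were marked at 21, 17 and 16 of 30 in HF and 15, 12 and 15 in SD, with none gained by the strict rule. Of these genes 12 (40.0%, beside 25.7% of all coding genes) were marked in more HF and 2 (6.67%, beside 1.42%) in more SD libraries. Never marked were 4 of the 30, beside 42.4% of all coding genes. At the 9 members marked throughout, the median relative width difference was -0.38 and the median percentile difference -7.2, beside -0.01 and 6.16 over all shared promoters. Cyp3a25 had widths of 3400, 2200 and 2800 bp in HF and 4200, 3800 and 3200 bp in SD, with a relative difference of -0.80 ± 0.27 (SE) (limma, adjusted p = 0.916). Among 21 bile acid genes, 18, 16 and 17 were marked in HF and 16, 14 and 16 in SD. Abcc4, an exporter of bile acids and nucleotides at the sinusoidal face of hepatocytes, was gained with islands of 600, 3600 and 1600 bp at percentiles 34.0, 64.0 and 3.9. Fgfr4, the receptor for the gut hormone that restrains bile acid synthesis, was gained in HF 1 and HF 3. Abcc3, an exporter of bile acid conjugates, had 2200, 400 and 1800 bp in HF and 1800, 2400 and 2200 bp in SD, with a relative difference of -1.23 ± 0.49 (SE).

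**Figure D4:**
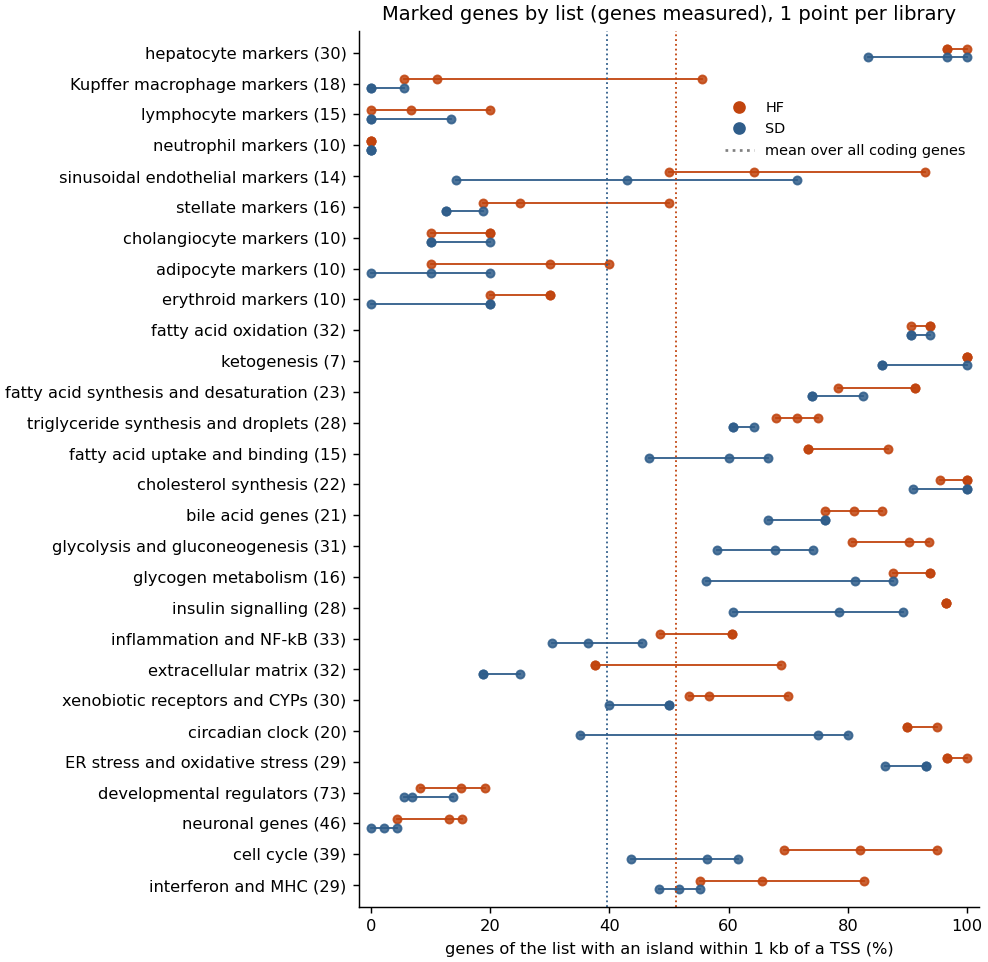
Percent of the genes of each list with an island within 1 kb of a TSS, 1 point per library, HF in orange and SD in blue, with a line from the lowest to the highest library and the number of genes measured in brackets. Dotted lines are the means over all coding genes, 51.2% for HF and 39.6% for SD. HF points lie right of all SD points for insulin signalling, extracellular matrix, cell cycle and the inflammation list, overlap at fatty acid oxidation near the top of the scale, and spread widest at Kupffer cell and endothelial markers, where HF 1 is the highest point.

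The other named gained genes had varied roles. Tfeb, a master regulator of lysosomes and autophagy, had islands of 2800, 2200 and 2800 bp at percentiles 75.6, 71.6 and 64.2, on the promoter with 22 CG dinucleotides printed above. Stx2, a syntaxin of membrane fusion, had 3000, 1400 and 2400 bp at percentiles 65.5, 73.4 and 79.4. Ccdc114, a docking protein of ciliary dynein, had 4200, 3400 and 4600 bp at percentiles 64.1, 62.1 and 70.1 and was marked in no CR library. Zfp503, a zinc finger repressor, had 5600, 1800 and 6200 bp, and 2 of its HF islands overlapped an SD island. The neighbours Ankrd37 and Lrp2bp shared islands of 3400, 2200 and 2000 bp, and Odf3b and Tymp (thymidine phosphorylase) shared islands of 4000, 1400 and 3800 bp. Hist1h4d, a replication-dependent histone H4 gene, had 1600, 1200 and 6400 bp, and the protocadherin Pcdhgb2 4200, 7600 and 3400 bp. Cacna1a, a neuronal calcium channel subunit, was the narrowest gained gene, at 600, 200 and 800 bp.

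Many gained genes were marked in other diets too. Islands lay at 83, 222 and 219 of the 397 genes in the CR libraries, at 48, 53 and 25 in RD and at 9, 28 and 9 in YD, and 93 genes had none in these 9 libraries. The libraries also differed in how many coding genes they marked in all, from 35.5% to 48.2% in CR, 27.8% to 34.7% in RD and 17.5% to 26.5% in YD. Of the genes named here, Gpsm3, Pcdhgb2, Esam, Tfeb, Ppard, Bhlhe41, Ankrd37 and Lrp2bp were marked in all 3 CR libraries. Cdkn2b, like Col14a1 and Tgfb3, was marked in none of the 9.

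The 2 lost genes had islands in all SD and no HF libraries and shared 1 island of 2000, 2200 and 3000 bp in SD 1 to 3 within the alpha protocadherin cluster of chromosome 18, at percentiles 38.4, 58.7 and 36.1. They are Pcdha4, a neuronal cell adhesion gene, and a predicted gene. Of the 14 genes marked in 2 SD and no HF libraries, Zfp626 had the widest islands on average. They measured 2200 bp in SD 1 and 2600 bp in SD 3. Both overlapped an HF island, and the nearest HF island lay 1196 bp from a TSS. Next was Pcdha2 (3000 bp in SD 1 and 1200 bp in SD 2). Capza3 and Plcz1 came after it, sharing islands of 1400 bp in SD 1 and 2600 bp in SD 2. Olfr25 followed (1600 bp in SD 1 and 2200 bp in SD 3). Of all 16 genes, 6 are olfactory or vomeronasal receptors, a family that holds 1464 of the 21755 coding genes. The median CpG ratio of the 16 was 0.208, near that of unmarked genes. The liver enzymes among them were Cyp4a10, a fatty acid omega-hydroxylase under PPARα control, with 800 bp in SD 2 and 1000 bp in SD 3, and Etnppl, a phosphoethanolamine lyase, with 1600 bp in SD 1 and 1400 bp in SD 2. Etnppl was singled out after its values were seen, and Cyp4a10 was the only one of 32 fatty acid oxidation genes in the class. Both genes were marked in 2 of 3 CR libraries.

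Islands at promoters marked in all 6 libraries tended to be wider in HF. After genes with identical islands were merged, 5331 shared promoters remained of 6271 genes. Their median width was 3000, 2200 and 2600 bp in HF 1 to 3 and 2200, 1800 and 2000 bp in SD 1 to 3. The mean of the medians was 2600 ± 400 bp (SD, n = 3) in HF and 2000 ± 200 bp (SD, n = 3) in SD, a difference of 600 bp (two-sided exact permutation test, p = 0.2), with HF 2 equal to SD 1. Islands of 4 kb or wider made up 25.9%, 8.35% and 19.5% of shared promoters in HF and 9.40%, 4.37% and 6.98% in SD. Here HF 2 lay below SD 1. The median score percentile was 85.1, 83.7 and 76.9 in HF and 84.1, 76.4 and 67.5 in SD, a difference of 5.90 (two-sided exact permutation test, p = 0.3). It was 1.98 without SD 3, 10.3 without SD 1 and 2.53 with the same number of highest-scoring islands kept from each list.

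The median log2 width difference was 0.36, and HF widths in bp all exceeded SD widths at 778 promoters (14.6%) and all fell below them at 14 (0.263%). Once each library was centred on its median width, the median difference was -0.01, with 222 promoters (4.16%) where HF lay above SD and 308 (5.78%) below. Ranks behaved alike. Percentiles within the whole list were all higher in HF at 597 promoters (11.2%) and all lower at 58 (1.09%), whereas ranks among the shared promoters alone were higher at 288 (5.4%) and lower at 339 (6.36%). Centring and ranking among the shared promoters bring the middle of each library to the same level by construction, so the near-even split on these scales says nothing about the shift itself.

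By limma on centred log2 widths, 1 promoter of 5331 was called wider at an adjusted p under the threshold of 0.05 (0.0188%) and none narrower, with 143 wider and 128 narrower at an unadjusted p under 0.05. The called gene was Zfp2, a zinc finger protein of the Krüppel type, with widths of 13400, 16400 and 11000 bp in HF and 1800, 1000 and 1600 bp in SD. Its relative difference was 2.87 ± 0.33 (SE) on the log2 scale (limma, adjusted p = 0.0145), and it fell short of the threshold when any 1 of the 6 libraries was left out. By percentile no promoter was called (limma, smallest adjusted p = 0.401), with 276 higher and 19 lower at an unadjusted p under 0.05. With ranks among the shared promoters alone these counts were 178 and 192. With log2 scores centred on each library's median they were 156 and 200. Both of these scales bring the libraries to the same level by construction.

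The map of islands around Zfp2 shows what the difference consists of. The gene spans chr11:50898712-50916165 on the minus strand, with an outer TSS at its start and an inner TSS 5.36 kb further in. In HF 1 to 3 a single island ran from the inner TSS over most or all of the gene body, and a further island lay at the outer TSS. In SD 1 and SD 3 the body was covered by several islands, of which the one at the inner TSS was 1800 and 1600 bp wide, and the outer TSS had none. In SD 2 a single island of 9200 bp covered the body but began 2.81 kb from the inner TSS, and the island counted, of 1000 bp, lay at the outer TSS. Islands covered 77.1%, 73.6% and 66.3% of the gene in HF and 56.7%, 54.8% and 56.7% in SD. When an island within 3 kb of a TSS was allowed, the relative difference was 0.90 (limma, adjusted p = 0.885). The gene body was thus marked in both diets, and the width counted at the TSS depended on whether the island of the body reached the inner TSS unbroken.

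**Figure D5:**
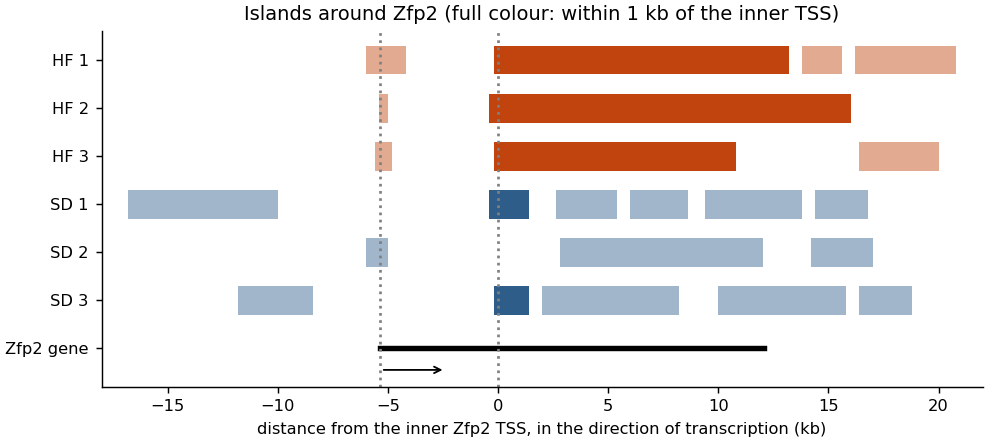
Islands around Zfp2 in the 6 libraries on a scale of distance in kb from the inner TSS in the direction of transcription, with the gene as a black line, the arrow at its start and dotted lines at both TSSs. Full colour marks islands within 1 kb of the inner TSS. HF islands there run unbroken for 11000 to 16400 bp, while SD 1 and SD 3 cover the body in separate pieces and the 9200 bp island of SD 2 starts 2.81 kb from the inner TSS.

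The promoters with the smallest p for score percentile held mostly wider HF islands as well. Brms1, a subunit of a histone deacetylase complex, had percentiles of 95.5, 95.1 and 92.5 in HF and 73.3, 68.6 and 68.1 in SD, and widths of 5200, 3800 and 5000 bp against 1200, 1400 and 1600 bp. Ino80d, a subunit of the INO80 chromatin remodeller, had 97.4, 91.5 and 94.0 against 65.8, 72.2 and 67.7, and Apon, the gene of apolipoprotein N, 91.7, 89.9 and 94.2 against 50.1, 53.6 and 62.3. These ranks did not overlap between the diets, but none was called (limma, adjusted p = 0.401). Fli1, an ETS factor of endothelial and blood cells, had 87.9, 78.4 and 78.5 against 45.8, 33.5 and 50.3, beside the endothelial marker counts given above. Abhd15 and its neighbour Trp53i13 had 91.7, 95.0 and 94.7 in HF on islands that both share there. Golim4, Fam53c and the pair Arl2 and Batf2 completed the genes higher in HF. The 1 gene lower in HF was Pclo, a scaffold of the presynaptic zone, with percentiles of 22.2, 32.4 and 32.8 against 80.9, 97.1 and 75.5, a difference of -55.4 ± 7.1 (SE).

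Among the narrowest relative widths by p value, Igfbp2 and Pdk4 were described above. The others with the smallest p were Dscc1 (800, 1000 and 1000 bp in HF and 1600, 1200 and 2000 bp in SD), which helps load the sliding clamp in replication, and Nsun3 (1800, 1400 and 1800 bp and 2600, 2000 and 3600 bp), a mitochondrial tRNA methyltransferase. Ruvbl1, Rps27l, Xpot, Gsto1, Dsg2 and Dnajc1 followed, with relative differences from -1.01 to -0.90. All 10 lay below SD in every library after centring, and none was called (limma, adjusted p = 0.916).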

How the data were processed

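H3K4me3 PAT-ChIP-seq was carried out on livers of 15 mice of 6 litters on 5 diets, and the 3 HF and 3 SD libraries were compared. The members and gene lists were chosen with earlier results of these data known. Per the methods and the submitters' processing notes, reads of 50 bp were aligned to mm10 with BWA, filtered with SAMtools for duplicates and mapping quality, and islands were called by SICER2 in each library separately, with windows of 200 bp and gaps of 400 bp. The deposited score of an island was computed by the authors as the sum over its windows of minus the natural logarithm of a Poisson probability. Since library depth enters it, this score was compared between libraries as a rank within its own list. An alternative took its log2 value, centred on each library's median. Scores take few distinct values per window, from which read totals were recovered.

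Genes and TSSs were those of the GENCODE annotation of GRCm38. An island within 1 kb of any TSS marked a gene. Where several lay there, the island with the highest score gave its width and percentile. Genes with identical islands were merged for tests. Log2 widths, centred on each library's median, and score percentiles were tested with limma 3.58.1 in R 4.3.3 (Benjamini-Hochberg adjusted p, threshold 0.05), which was tested on simulated data first. Library values were compared with exact permutation tests that listed every assignment of the libraries to the diets, with numpy 2.4.6. For the recovery of read totals scipy 1.17.1 was used. The limma p-values set the diet difference against variation between 3 mice per diet, with variances moderated over all shared promoters. Permutation p-values rank the diet difference among all assignments of the libraries. Named genes were the 10 gained genes with the widest and the 10 with the highest-ranked islands, the lost genes and the 5 widest of those in 2 of 3 SD libraries, the called promoters or, where none was called in a direction, the 10 with the smallest p, every listed gene that was gained or lost, and up to 4 members per list with the largest width difference, of which the text gives some. Genes marked in 2 of 3 libraries, Etnppl and members of families were named after their values were seen. Alternatives changed the distance to a TSS, the islands kept, the genes, the scaling and the libraries. Sequences were read from GRCm38.p6 at the annotated TSSs and were identical to the RefSeq table in all 10257 windows that share a start.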

Additional observations from a re-analysis of the deposited data

How the results depend on the processing

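The HF mean exceeded the SD mean for marked genes under every alternative run. The difference was 8.16 to 13.4 percentage points when 1 library was left out and 5.89 points over all annotated genes. With islands at or above the median score it was 9.86 points (two-sided exact permutation test, p = 0.2). In that setting not every HF library lay above every SD library. Gained genes numbered 1021 with at least 2 of 3 libraries, 1577 in the libraries with ChIP in their names (HF 1 against SD 1 to 3, chosen after seeing the data), 220 when the same number of highest-scoring islands, 10501, was kept from each list, and 218 with islands at or above the median score. They numbered 416 to 903 when 1 library was left out, and 396 within 3 kb, 446 with the TSS inside an island and 485 over all annotated genes. Leaving out a library loosens the rules for gained and lost genes, so both counts could then only stay or rise. Lost genes numbered 16, 9, 4, 4 and 4 with at least 2 of 3 libraries, by ChIP name, within 3 kb, with the TSS inside an island and over all annotated genes, and 2 to 8 without 1 library. The count of wider promoters, 1 as reported, was 0 at or above the median score and within 3 kb, 2 with the same number of islands, 3 with the TSS inside an island and 0 to 0 without 1 library, where the relative difference of Zfp2 was 2.61 to 3.02 (limma, adjusted p from 0.0643 to 0.247). At Zfp2 it was 0.90 within 3 kb (limma, adjusted p = 0.885). The labels give both diets replicate numbers 1 to 3. Deviations of same-numbered libraries correlated at 0.075, -0.040 and -0.014 for width and at 0.135, -0.009 and -0.022 for percentile. With 3 libraries per diet these values cannot show whether the numbers pair the mice. With the replicate block 0 promoters were called wider, and Zfp2 had an adjusted p of 0.0958 by limma. No result reversed. The cause of these shifts was not tested, except that stricter lists keep fewer islands. Island lists hold nothing below the caller's threshold, so a missing island is not a measured absence of the mark. SD 3 was the shallowest of the HF and SD libraries, and the part of its depth in the missing SD islands was not tested.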

Other observations

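Gene families outside the lists above were chosen after values were seen and are given as counts. Replication-dependent histone genes were marked at 40, 21 and 30 of 67 in HF and 18, 14 and 13 in SD. Of the 67, 34 (50.7%, beside 25.7% of all coding genes) were marked in more HF than SD libraries and none in more SD libraries. Never marked were 22 of the 67, beside 42.4% of all coding genes. Hist1h1b, Hist1h4d and Hist1h4k were gained (4.48%, beside 1.82% of all coding genes), and these intronless genes have near-identical copies. Solute carriers, the transporters of small molecules, were marked at 211, 174 and 203 of 371 in HF and 144, 156 and 120 in SD. Those marked in more HF than SD libraries made up 31.5%, beside 25.7%, and 12 carriers were gained (3.23%, beside 1.82%). Among them were Slc7a1, a carrier of arginine and lysine, with islands of 1600, 1400 and 1400 bp, Slc47a1, which exports organic cations, with 1400, 800 and 2800 bp, and the mitochondrial carrier Slc25a34, with 1400, 1800 and 3000 bp. Of 61 serpins, 25, 18 and 19 were marked in HF and 14, 10 and 14 in SD, and Serpinb8 was gained beside Serpina3k and Serping1. The gained share was 4.92%, beside 1.82%. Serpins marked in more HF than SD libraries made up 26.2%, near the 25.7% of all coding genes. Hox genes were marked at 9, 3 and 5 of 39 in HF and 2, 2 and 0 in SD. Of these, 10 (25.6%) were marked in more HF than SD libraries, near the 25.7% of all coding genes. Hoxa5 alone was gained (2.56%, beside 1.82%), with islands of 1800, 1400 and 1600 bp.

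Olfactory and vomeronasal receptors, genes of the sensory epithelia of the nose, were marked at 25, 37 and 4 of 1464 in HF and 74, 13 and 13 in SD, so that the groups overlapped and SD 1 was highest. Of these receptors 79 (5.40%, beside 1.42% of all coding genes) were marked in more SD libraries. In more HF libraries 48 were marked (3.28%, beside 25.7% of all coding genes). Ribosomal protein genes were marked nearly throughout, at 79, 80 and 79 of 82 in HF and 79, 78 and 72 in SD, and complex I genes of the respiratory chain at 45 of 46 in each HF library and 45, 42 and 39 in SD. On chromosome X, 29 of 948 coding genes were gained (3.06%), a larger share than on any autosome.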
